A study of Mus musculus with 24 samples.

Results

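OE+Cy and ZIP+Cy cells are stable lines of MIN6, a β cell line established from a mouse insulinoma, that differ in miR-146a-5p and had both been exposed to proinflammatory cytokines. The comparison was made over the 8 libraries whose labels name these groups, 4 per group, out of 24 libraries in 6 groups. OE cells carried a shMIMIC lentiviral vector for overexpression of miR-146a-5p with Turbo RFP as reporter. ZIP cells carried a miRZip-146a vector, which expresses an anti-sense inhibitor of the microRNA, with copGFP as reporter. The Scr control cells carried a scrambled sequence in the miRZip vector. Each line had been selected with puromycin and grown from picked clones, so the effect of miR-146a-5p, the clone and, for OE, the vector cannot be told apart here. Cytokine treatment lasted 24 h, with IL-1β at 5 ng/ml, TNFα at 10 ng/ml and IFNγ at 100.0 ng/ml. The untreated OE and ZIP groups and Scr+Cy, each of 4 libraries, were used to place the differences between OE+Cy and ZIP+Cy. The libraries were made from mRNA, so miR-146a-5p itself was not measured and the labels could not be checked on it. The comparison asks how the mRNAs of cytokine-treated β cells differ between high and blocked miR-146a-5p.

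miR-146a is a short RNA whose gene is switched on by NF-κB and whose classical targets, the adaptor kinase Irak1 and the ubiquitin ligase Traf6, carry signals of the IL-1 receptor and of Toll-like receptors to NF-κB. It is therefore known as a brake on inflammatory signaling in immune cells. In β cells, IL-1β and TNFα act through NF-κB and IFNγ through JAK kinases, and together they switch on nitric oxide synthase, chemokines and antigen presentation and disturb the endoplasmic reticulum (ER). MicroRNAs bind mRNA mostly through the seed, bases 2 to 8 counted from their 5′ end. The mature sequence of miR-146a-5p and that of miR-146b-5p, which has the same seed, are shown because every target site below is read against them, with the seed in capitals (RefSeq, GRCm38.p6, chr11:43374435-43374456 on the minus strand and chr19:46342790-46342811 on the plus strand).
miR-146a-5p: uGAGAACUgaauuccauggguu
miR-146b-5p: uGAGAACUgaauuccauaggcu
The 3′ UTR of Irak1 held 2 matches to the seed and that of Traf6 held 4, all of them followed by an A. They are shown as the last 23 bases that would face the microRNA, with the bases that pair with the seed in capitals, on mm10 (Irak1 on the minus strand of chrX, Traf6 on the plus strand of chr2).
Irak1 chrX:74015393-74015415: agactcagaggtcaaAGTTCTCa
Irak1 chrX:74015377-74015399: gttctcatgcttggaAGTTCTCa
Traf6 chr2:101697944-101697966: accgctctggtgttgAGTTCTCa
Traf6 chr2:101698008-101698030: tccctggaaggcttaAGTTCTCa
Traf6 chr2:101698820-101698842: agtactttggagtctAGTTCTCa
Traf6 chr2:101701344-101701366: ggactttgctactgcAGTTCTCa

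Libraries of OE+Cy held 27721701 to 30972218 reads assigned to genes and those of ZIP+Cy 26657792 to 31820580. Levels are given in CPM (reads of a gene scaled to the sum of its library) after TMM scaling, one value per library in the order of replicates 1 to 4, or as mean ± SD (n = 4). Log2 fold changes are OE+Cy over ZIP+Cy ± SE from edgeR, with adjusted p values over the 17696 genes listed. Where one value per library is given, the groups did not overlap unless this is stated. Nothing in the labels says that replicates came from separate cultures, so the p values measure a spread between libraries. That spread was estimated in 1 fit over all 24 libraries, the untreated ones included. The RNA came from whole cultures, and fewer cells that express a gene cannot be told apart from less of its RNA per cell. Log2 CPM correlated between 0.9843 and 0.9942 for pairs of libraries within a group and between 0.8646 and 0.8864 for pairs across OE+Cy and ZIP+Cy.

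With cytokines present, OE and ZIP cells differed in 27.3% of the genes tested, which is 4830 of 17696 with an adjusted p under 0.05 and a difference of 1.5-fold or more. Of these, 2423 (13.7% of genes tested) were higher in OE+Cy and 2407 (13.6%) were lower. With the unadjusted p under 0.05 that the study used, 5131 genes (29%) passed. The 4 libraries of each group did not overlap in 4348 of the 4830 genes, against 8228 (46.5%) of all genes tested. At 4-fold or more 958 genes were higher and 636 lower, and at 16-fold or more 370 and 149. Among genes with a mean of at least 1 CPM in any of the 4 OE and ZIP groups these counts were 484 and 417, and 198 and 83, while at 1.5-fold or more 1796 were higher and 2060 lower. In 25 genes, all ZIP+Cy libraries had 3 reads or fewer while OE+Cy had a mean of at least 5 CPM, and 2 genes showed the reverse.

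Most of these differences were also present without cytokines. Between untreated OE and ZIP cells, which share no library with the treated comparison, 4515 genes (25.5%) passed the same test, 1858 (10.5%) higher and 2657 (15%) lower in OE. Of the 2423 genes higher in OE+Cy, 1337 (55.2%) were also higher in untreated OE cells, 51 were lower and 1035 did not pass. Of the 2407 genes lower in OE+Cy, 1755 (72.9%) were also lower without cytokines and 9 were higher. Across the 13155 genes with a mean of at least 1 CPM, both log2 fold changes had a Pearson correlation of 0.852 and a Spearman correlation of 0.719, given as a description across genes of the same lines. The difference between both comparisons, which is the difference between the cytokine responses of OE and ZIP cells, passed an adjusted p under 0.05 in 3647 genes (20.6%), 1798 (10.2%) toward a higher and 1849 (10.4%) toward a lower value in OE+Cy.

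**Figure D1:**
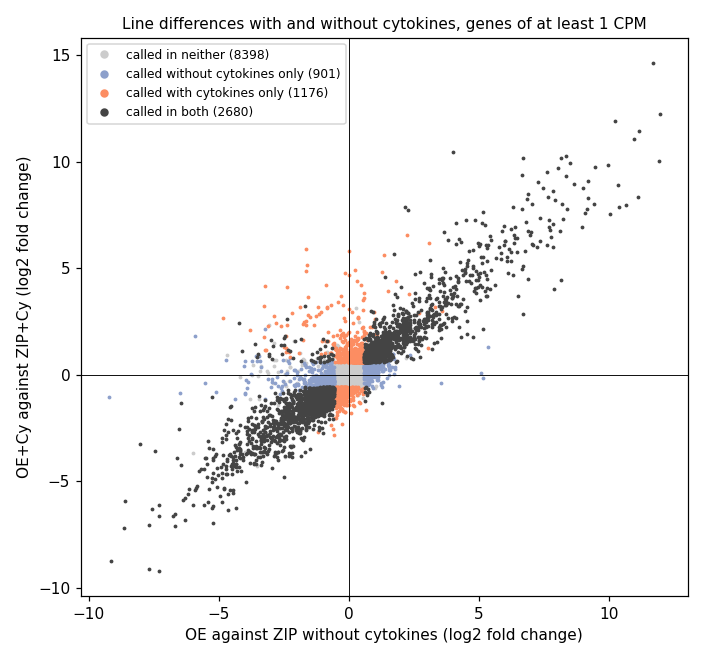
Log2 fold changes of OE over ZIP for each gene with a mean of at least 1 CPM in any of the 4 groups, with cytokines on the vertical axis and without on the horizontal axis. Of 13155 genes, 2680 were called in both comparisons, 1176 only with cytokines and 901 only without, and the genes called in both lie mostly along the diagonal.

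Scr+Cy served as a reference for the position of both lines. OE+Cy differed from Scr+Cy in 4725 genes (26.7%) and ZIP+Cy from Scr+Cy in 2227 genes (12.6%), comparisons that share libraries with that of OE+Cy and ZIP+Cy. The mean of Scr+Cy lay between OE+Cy and ZIP+Cy for 2970 of the 4830 genes, above both for 975 and below both for 885. Values in Scr+Cy are given below where a gene is described in full.

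The classical targets of miR-146a were not lower as a group in OE+Cy. Of 14 reported targets, 4 were higher (28.6%), 2 were lower (14.3%) and 8 did not pass. Of all genes tested, 13.7% were higher and 13.6% lower. Irak1, at chrX:74013914-74023922, measured 187, 193, 166 and 177 CPM in OE+Cy and 171, 177, 152 and 184 CPM in ZIP+Cy, and both groups overlapped (log2 fold change 0.08 ± 0.06, adjusted p = 0.304). Traf6, at chr2:101678420-101701669, measured 64.9, 65.8, 66 and 60.8 CPM in OE+Cy and 83.7, 82.6, 85.4 and 74.9 CPM in ZIP+Cy. Every OE+Cy library was below every ZIP+Cy library of Traf6, but the difference was under the fold limit (log2 fold change −0.34 ± 0.05, adjusted p = 9.74e-06), and it was −0.34 without cytokines. Of the other adaptors, the kinase Irak2 was higher in OE+Cy (13.7 ± 4.46 against 5.95 ± 0.447 CPM, log2 fold change 1.20 ± 0.17). The scaffold protein Card10 was higher as well, at 2.75 ± 0.656 against 0.392 ± 0.0515 CPM.

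The receptors and fate regulators on the list moved in both directions. Notch1, a receptor of cell fate decisions, was lower in OE+Cy, with 34.9, 36.3, 38.1 and 43 CPM against 57.3, 60.9, 67.4 and 53.1 CPM (log2 fold change −0.65 ± 0.09, adjusted p = 1.35e-06). Without ZIP+Cy replicate 3 its log2 fold change was −0.58, under the fold limit. Numb, which holds Notch signaling back, was higher (30.9 ± 1.43 against 18.8 ± 0.847 CPM, log2 fold change 0.71 ± 0.06, adjusted p = 2.38e-10). Tlr4, the receptor for bacterial lipopolysaccharide, was near 0 in ZIP+Cy, at 0.105, 0, 0.0383 and 0 CPM, and reached 24.5, 23.3, 33.5 and 22.4 CPM with OE+Cy, which is at least 246.9-fold higher against a floor of 3 reads per library. The mean of Tlr4 in Scr+Cy was 0.0999 CPM. Smad4, Elavl1, Relb and Cxcr4 did not pass, with log2 fold changes from −0.36 to 0.19, and Erbb4 was lower at a mean under 1 CPM in both groups.

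All 10 genes that the study followed up passed the test in OE+Cy against ZIP+Cy. The authors had picked them by how the untreated ZIP and OE lines differed from Scr, so their direction between the same lines with cytokines is not independent evidence. Gpx1 was chosen for its role in oxidative stress and was not a predicted target, and the others were predicted targets. Of these, 6 were lower in OE+Cy. Myrip, which tethers secretory granules to myosin, showed 0.0695, 0, 0 and 0 CPM in OE+Cy against 13.7, 12, 9.7 and 10.4 CPM in ZIP+Cy, at least 116.8-fold lower. Gpx1, a glutathione peroxidase that removes hydrogen peroxide, measured 72.6, 77.1, 73.1 and 79 CPM against 227, 266, 230.1 and 274 CPM (log2 fold change −1.72 ± 0.08, adjusted p = 1.58e-14). Mapt, the microtubule protein tau, measured 44.6, 59, 56.6 and 65 CPM against 208, 168, 198 and 156 CPM (log2 fold change −1.70 ± 0.15, adjusted p = 1.79e-09). Glutaredoxin (Glrx) had a log2 fold change of −1.52 ± 0.07, the sorting receptor Sort1 of −1.11 ± 0.06 and the growth factor Nrg1 of −2.18 ± 0.19. The 4 higher genes were Brsk2, a kinase of neuronal polarity (2.53 ± 0.21), Rest, a repressor of neuronal genes (2.24 ± 0.26), Eya1, a developmental phosphatase (3.07 ± 0.12), and Perp, a p53 target of cell adhesion (1.54 ± 0.09). By qRT-PCR, the study reported differential expression of Myrip, Gpx1, Mapt, Nrg1, Brsk2, Eya1 and Perp, but not of Glrx, Rest and Sort1. The longest annotated 3′ UTR of Myrip, Mapt, Sort1, Nrg1 and Rest held at least 1 seed match, and none was found in those of Glrx, Gpx1, Brsk2, Eya1 and Perp. The sites of the lower genes Notch1, Sort1, Mapt and Myrip are shown, since they can be set beside those of the higher gene Numb.
Notch1 chr2:26459263-26459285: ccaagaaaataaactAGTTCTCa
Sort1 chr3:108360967-108360989: ccgaattcctagtgcAGTTCTCa
Mapt chr11:104329104-104329126: aaagctgctttactgAGTTCTCa
Myrip chr9:120474106-120474128: ctgtcttcacttccaAGTTCTCt
Numb chr12:83794813-83794835: tagaatattttaaatAGTTCTCa

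Genes with a seed match were called at shares close to those of the rest. Of 12069 genes with a mean of at least 1 CPM and an annotated 3′ UTR, 13.3% were higher and 15.4% lower in OE+Cy, and the median log2 value was 0.0056. Among the 1543 genes with a match to bases 2 to 8, 12.4% were higher and 16.3% lower, and the median was −0.031. Among the 551 genes whose match was followed by an A, 12.2% were higher and 15.6% lower, with a median of −0.053. In the 10526 genes with no match, 13.5% were higher and 15.2% lower, with a median of 0.0095. The 3′ UTRs with a match were longer, with a median of 2759 bases against 1073.

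Many genes of the epithelial surface were expressed in OE+Cy and near 0 in ZIP+Cy. Of 26 listed genes of epithelial junctions and keratins, 21 were higher in OE+Cy and 3 were lower. These were 80.8% and 11.5% of the list, against 13.7% and 13.6% of all genes tested. The median log2 fold change of the list was 6.15, against 0.027 over all genes tested. Esrp1, a splicing regulator of epithelial cells at chr4:11331933-11386784, had no read in any ZIP+Cy library. It measured 101, 108, 109.5 and 88.9 CPM across the OE+Cy libraries, which is at least 970.5-fold higher. Epcam, the epithelial adhesion molecule, measured 111, 107, 108 and 109.9 CPM against 0.0698, 0, 0.0383 and 0.0322 CPM, at least 1038-fold higher. The intermediate filament Krt19 measured 18, 20.5, 15.9 and 24.2 CPM against 0 in all ZIP+Cy libraries, and Krt7, a keratin of duct cells, 379.8 ± 47.3 against 5.6 ± 0.668 CPM. E-cadherin (Cdh1), which joins neighboring epithelial cells, measured 290.3, 280.1, 326 and 303 CPM in OE+Cy and 4.09, 3.73, 6.29 and 3.51 CPM in ZIP+Cy (log2 fold change 6.10 ± 0.18, adjusted p = 1.61e-18). The same genes were nearly silent in Scr+Cy, with means of 0.0539 CPM for Esrp1, 0.108 CPM for Epcam and 6.21 CPM for Cdh1, and Epcam had a log2 fold change of 11.14 without cytokines.

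Among the other large rises were the receptor tyrosine kinase Ret (83.1 ± 8.65 CPM against at most 3 reads per library, at least 790.8-fold), the vesicle adaptor Ap1m2 (at least 259.8-fold), the small GTPase Rab25 (at least 343.8-fold), the basement membrane anchor Lad1 (at least 561.2-fold) and the vesicular glutamate transporter Slc17a6 (at least 102.9-fold). Il18r1, a receptor chain for the cytokine IL-18, measured 8.86, 14.9, 23.3 and 23.6 CPM in OE+Cy and at most 3 reads in ZIP+Cy, at least 168.2-fold higher. Pabpc1l2b, of the poly(A)-binding protein family, measured 58.9 ± 14.3 against 0.0436 ± 0.0873 CPM. Zeb1 and Zeb2, repressors of epithelial genes, were lower in OE+Cy, at 33.9 ± 2.88 against 79.2 ± 3.41 CPM for Zeb1 (log2 fold change −1.23 ± 0.07, adjusted p = 3.11e-13) and 4.87 ± 0.431 against 17.5 ± 0.90 CPM for Zeb2 (log2 fold change −1.84 ± 0.36, adjusted p = 1.26e-04).

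The 10 genes that fell most by fold had varied roles, and Myrip, described above, was one of them. Trf, the iron carrier transferrin, had at most 3 reads in each OE+Cy library and 12.9, 10.2, 13.2 and 12 CPM in ZIP+Cy, at least 123.1-fold lower. Kcnj12, an inwardly rectifying potassium channel, measured 0.208, 0.542, 0.474 and 0.638 CPM in OE+Cy and 49.8, 51.6, 49.8 and 36.7 CPM in ZIP+Cy. Wscd1 measured 0.21 ± 0.164 against 29.5 ± 4.76 CPM, the coreceptor Klb 0.192 ± 0.102 against 14.7 ± 3.82 CPM, the junction protein Amotl1 0.794 ± 0.217 against 55.3 ± 4.6 CPM and the matrix protein Crtac1 0.915 ± 0.36 against 58.2 ± 4.74 CPM. Epb41l4a and the zinc finger protein Zfp521 had log2 fold changes of −5.98 ± 0.25 and −5.88 ± 0.47. Pcdhgb7, a protocadherin that shares its last exons with neighboring genes of its cluster, was lower as well (−7.06), and its reads could have been divided among them. The laminin chains Lama1 and Lama5, which build basement membrane, were lower (−4.69 ± 0.22 and −3.47 ± 0.10). Over the 31 genes of matrix, adhesion and guidance, 7 were higher (22.6%) and 9 lower (29%), against 13.7% and 13.6% of all genes tested. When ZIP+Cy replicate 1 or 2 was left out, 4 were higher.

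Among genes of the cytokine response, most that passed the test were higher in OE+Cy than in ZIP+Cy. Nos2, the inducible nitric oxide synthase at chr11:78920787-78960227, measured 704, 741, 1008 and 712 CPM in OE+Cy and 41.1, 85.9, 138 and 86.7 CPM in ZIP+Cy. Every OE+Cy library was above every ZIP+Cy library (log2 fold change 3.17 ± 0.39, adjusted p = 1.94e-07), and the mean in Scr+Cy was 25 ± 11.1 CPM. Of the 11 listed genes of nitric oxide and arginine handling, 4 were higher and 3 lower. These were 36.4% and 27.3% of the list, against 13.7% and 13.6% of all genes tested. Gch1, which makes the cofactor of nitric oxide synthase, was higher (0.65 ± 0.07), and so was Ass1, which regenerates arginine (19 ± 4.68 against 5.7 ± 0.622 CPM, log2 fold change 1.74 ± 0.16, adjusted p = 1.72e-09). Slc7a2, an importer of arginine, was lower (103, 115, 105 and 91.8 CPM against 285, 315, 311 and 252 CPM, log2 fold change −1.49 ± 0.11, adjusted p = 4.15e-11).

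Of 15 cytokine genes, 7 were higher in OE+Cy and 1 was lower (46.7% and 6.67%, against 13.7% and 13.6% of all genes tested). Tnf, itself one of the cytokines added, measured 48.4, 39.4, 64.5 and 56.4 CPM in OE+Cy and 3.67, 2.07, 6.4 and 4.51 CPM in ZIP+Cy, with no overlap (log2 fold change 3.65 ± 0.26, adjusted p = 1.46e-10). Lif, a cytokine of the IL-6 family, measured 16.9, 22.4, 25.5 and 20.5 CPM against 1.64, 1.45, 2.61 and 1.81 CPM (log2 fold change 3.51 ± 0.21, adjusted p = 6.08e-13). Il1b, which encodes IL-1β, went the other way, with 1.95, 2.03, 2.08 and 1.88 CPM against 4.5, 6.29, 6.4 and 6.87 CPM (log2 fold change −1.60 ± 0.18, adjusted p = 8.81e-08). Tgfb1 was higher (2.05 ± 0.14), and Il15, Il23a, Lta and Ltb passed at means under 3 CPM.

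Chemokines, which draw leukocytes, were higher in OE+Cy for 8 of 14 listed genes (57.1%, against 13.7% of all genes tested) and lower for none. Among the higher ones, Ccl3, Ccl5, Ccl7 and Ccl8 passed at means under 1 CPM in both groups. Cxcl11 measured 17.5, 15.2, 25.1 and 20.7 CPM in OE+Cy and 1.15, 3.15, 3.6 and 3.8 CPM in ZIP+Cy (log2 fold change 2.75 ± 0.33, adjusted p = 3.88e-07), with no overlap. Cxcl9 measured 641, 839.6, 1765 and 1166 CPM against 191, 395, 620.0 and 469.7 CPM (log2 fold change 1.40 ± 0.55, adjusted p = 0.034), without overlap between the groups, and did not pass with DESeq2 (adjusted p = 0.344) or when any of 5 libraries was left out, with an adjusted p up to 0.114 without OE+Cy replicate 3. Cxcl10 was the most abundant, at 1458, 1335, 1642 and 1427 CPM against 581, 913, 1117 and 1136 CPM (log2 fold change 0.65 ± 0.59, adjusted p = 0.373). Every OE+Cy library of Cxcl10 was above every ZIP+Cy library, and with only the treated libraries in the fit its adjusted p was 0.00703. Ccl2 measured 70.9, 67, 92.6 and 65.4 CPM against 31.2, 34.6, 60.9 and 61.9 CPM (log2 fold change 0.65 ± 0.28, adjusted p = 0.0587) and passed in a fit blocked on the replicate number (log2 fold change 0.68, adjusted p = 0.0198), with only the treated libraries in the fit (adjusted p = 0.0195) and without ZIP+Cy replicate 3 or 4 (adjusted p = 0.0367 and 0.0345).

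**Figure D2:**
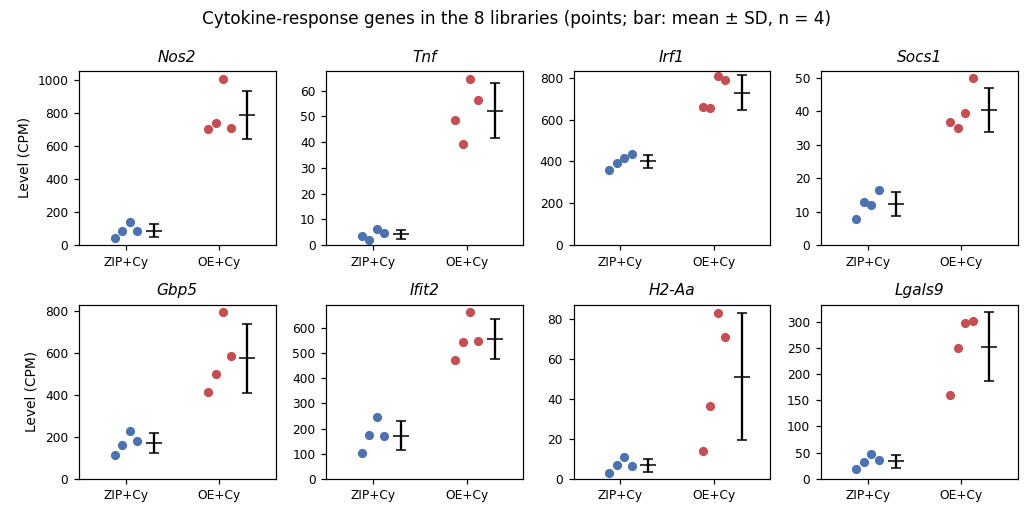
Level in CPM on linear axes from 0 of Nos2, Tnf, Irf1, Socs1, Gbp5, Ifit2, H2-Aa and Lgals9, one point per library with the mean ± SD (n = 4) of each group. The 4 OE+Cy libraries lie above the 4 ZIP+Cy libraries in every panel.

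Most genes that carry the cytokine signals did not pass. Of 16 cytokine receptors and adaptors, 5 were higher in OE+Cy and none was lower (31.2% called, against 27.3% of all genes tested). The receptors that bind the added cytokines did not pass, with log2 fold changes of −0.09 for Il1r1, −0.17 for Ifngr1 and 0.07 for Tnfrsf1a, and Tnfrsf1b passed at a mean under 1 CPM. Ifngr2, the second chain of the IFNγ receptor, was higher, with 70.2, 87.3, 113 and 89.5 CPM against 53.5, 51, 63.7 and 49.2 CPM (log2 fold change 0.73 ± 0.11, adjusted p = 3.52e-06), with the lowest OE+Cy library just above the highest ZIP+Cy library. Jak2, the kinase bound to that chain, measured 120.2, 135, 171 and 135 CPM against 77.9, 88.8, 92.1 and 85.2 CPM (log2 fold change 0.71 ± 0.09, adjusted p = 2.81e-07).

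Of the 16 STAT and IRF transcription factors, 4 were higher and none was lower, a share called of 25%, near the 27.3% of all genes tested. Irf1, a factor that IFNγ switches on, measured 662, 657, 810.4 and 789 CPM in OE+Cy and 359, 394, 417 and 433 CPM in ZIP+Cy, with no overlap (log2 fold change 0.86 ± 0.09, adjusted p = 2.33e-08), and its mean in Scr+Cy was 412 CPM. Irf8, a factor better known from myeloid cells, measured 7.09, 12.7, 17.2 and 15.5 CPM in OE+Cy and was near 0 in ZIP+Cy, at 0.105, 0.104, 0.153 and 0.322 CPM (log2 fold change 6.21 ± 0.43, adjusted p = 8.86e-11). Stat6 was higher as well (1.05).

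Of 16 NF-κB subunits, kinases and inhibitors, 5 were higher and none was lower (31.2% called, against 27.3% of all genes tested). The subunit Rela, which carries the activating domain of NF-κB, measured 67.2, 75.6, 82 and 81.7 CPM against 43.9, 45.4, 46.5 and 49.1 CPM (log2 fold change 0.73 ± 0.08, adjusted p = 2.32e-08), and the precursor subunit Nfkb1 was just over the fold limit (0.59 ± 0.08). The kinase Ikbke was higher at 32 ± 3.73 against 9.37 ± 1.06 CPM (log2 fold change 1.77 ± 0.13, adjusted p = 2.31e-11), and the nuclear regulator Nfkbiz at 82.7 ± 17.7 against 34.7 ± 4.56 CPM (log2 fold change 1.25 ± 0.15, adjusted p = 1.41e-07). The inhibitor Nfkbia, which NF-κB induces as its own brake, was under the fold limit (0.42 ± 0.10). Among 14 SOCS genes and other brakes, 3 were higher and none was lower (21.4% called, under the 27.3% of all genes tested). Socs1, which blocks JAK kinases, measured 36.9, 35, 39.6 and 50 CPM in OE+Cy and 7.68, 13, 11.9 and 16.4 CPM in ZIP+Cy (log2 fold change 1.72 ± 0.19, adjusted p = 6.02e-08), and the phosphatase Ptpn6 (3.70) and the interferon brake Usp18 (0.89) were the others.

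Interferon-induced GTPases of the GBP and IRG families, which attack membranes around intracellular microbes, were among the most abundant cytokine-induced genes. Of 18 listed members, 10 were higher in OE+Cy (55.6%) and none was lower, against 13.7% and 13.6% of all genes tested, and with DESeq2 the count was 6. Gbp5 measured 414, 499, 795 and 585 CPM in OE+Cy and 112, 161, 229.6 and 180.4 CPM in ZIP+Cy, with no overlap (log2 fold change 1.75 ± 0.34, adjusted p = 1.29e-04). Gbp4, Gbp8, Gbp9 and Gbp10 had log2 fold changes of 3.20, 4.13, 3.16 and 3.43. Tgtp1 measured 2642, 2512, 2685 and 2689 CPM against 662, 856, 929.8 and 945 CPM (log2 fold change 1.63 ± 0.61, adjusted p = 0.0267), and its adjusted p rose to 0.0649 without ZIP+Cy replicate 1 and to 0.0521 without ZIP+Cy replicate 2. Gbp2 did not pass, with 1808, 1768, 2176 and 1998 CPM against 564, 1113, 1226 and 1349 CPM (log2 fold change 0.87 ± 0.65, adjusted p = 0.276), but its libraries did not overlap and its adjusted p was 0.00365 with only the treated libraries in the fit. Tgtp2 measured 2109.6 ± 109 against 789 ± 82.9 CPM (log2 fold change 1.42 ± 0.55, adjusted p = 0.033) and Gbp6 1381 ± 147 against 389.7 ± 85.1 CPM (log2 fold change 1.82 ± 0.50, adjusted p = 0.00347). Tgtp2 did not pass when any ZIP+Cy library or OE+Cy replicate 3 or 4 was left out, with adjusted p from 0.0502 to 0.0721. Gbp6 did not pass with DESeq2 (adjusted p = 0.208), which gave Tgtp1 and Tgtp2 no adjusted p. Gbp7, Igtp, Irgm1 and Irgm2 did not pass, with log2 fold changes from −0.54 to 0.48. Members of these families are close copies of each other, so reads could have been divided between them.

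Of 25 antiviral interferon-stimulated genes, 17 were higher in OE+Cy (68%, against 13.7% of all genes tested) and none was lower at the fold limit. Ifit2, which blocks translation of viral RNA, measured 473, 543, 666 and 549.6 CPM against 103, 173, 245 and 169 CPM (log2 fold change 1.70 ± 0.21, adjusted p = 2.00e-07). Oas3, which senses double-stranded RNA, measured 153, 187, 225 and 218 CPM against 23.2, 39.7, 50.1 and 44.2 CPM (log2 fold change 2.32 ± 0.26, adjusted p = 3.90e-08), and Ifit1 measured 300.2 ± 38 against 111 ± 23 CPM. Isg15, a ubiquitin-like protein, measured 108, 110.1, 126 and 152 CPM against 44.8, 64.8, 80.2 and 83.2 CPM (log2 fold change 0.86 ± 0.23, adjusted p = 0.00228), without overlap, but not past the threshold with DESeq2 (adjusted p = 0.0634). Oasl1, Ifi44, Zbp1 and Eif2ak2 did not pass, with log2 fold changes from 0.08 to 0.43.

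The promoters of these genes share short motifs, and 3 are printed because they hold the motifs that the text counts. The window ran from 250 bases before to 50 bases after the start of the gene (RefSeq, GRCm38.p6), and promoters were found for 13884 of the genes tested (78.5%). The interferon-stimulated response element was searched as GAAANNGAAA, the gamma-activated site as TTCNNNGAA, which reads the same on both strands, and the κB site as GGGNNTTTCC, each on both strands. An interferon-stimulated response element was found in 3.67% of promoters of genes tested, in 10 of 11 of the GBP and IRG list and in 12 of 18 of the antiviral list. A gamma-activated site was found in 8.36% of promoters of genes tested, in 6 of 11 and in 6 of 18. A κB site was found in 2% of promoters of genes tested, in 4 of 12 of the NF-κB list and in 3 of 9 of the chemokine list. The lists were counted whole, with members that were not called. In promoters of genes higher in OE+Cy, the 3 motifs, in the same order, were found in 5.5%, 9.26% and 2.12%. In those of genes lower in OE+Cy, the shares were 2.94%, 7.85% and 1.82%. Capitals mark the matches, and overlapping matches were counted one by one. The printed promoter of Gbp5 (chr3:142496684-142496983, plus strand) held all 3 motifs, that of Ifit1 (chr19:34640639-34640938, plus strand) 2 interferon-stimulated response elements and that of Irf8 (chr8:120736108-120736407, plus strand) 2 gamma-activated sites.
Gbp5: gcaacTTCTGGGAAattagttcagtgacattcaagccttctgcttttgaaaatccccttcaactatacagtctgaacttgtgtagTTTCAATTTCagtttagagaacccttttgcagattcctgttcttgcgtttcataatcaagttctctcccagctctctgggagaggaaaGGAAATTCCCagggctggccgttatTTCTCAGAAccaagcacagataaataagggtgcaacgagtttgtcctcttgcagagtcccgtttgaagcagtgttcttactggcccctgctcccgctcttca
Ifit1: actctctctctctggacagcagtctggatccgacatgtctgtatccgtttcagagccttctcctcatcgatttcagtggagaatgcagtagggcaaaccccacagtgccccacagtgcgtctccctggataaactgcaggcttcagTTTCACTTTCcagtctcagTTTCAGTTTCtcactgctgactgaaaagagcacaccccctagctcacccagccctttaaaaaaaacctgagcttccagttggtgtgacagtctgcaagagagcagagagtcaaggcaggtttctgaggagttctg
Irf8: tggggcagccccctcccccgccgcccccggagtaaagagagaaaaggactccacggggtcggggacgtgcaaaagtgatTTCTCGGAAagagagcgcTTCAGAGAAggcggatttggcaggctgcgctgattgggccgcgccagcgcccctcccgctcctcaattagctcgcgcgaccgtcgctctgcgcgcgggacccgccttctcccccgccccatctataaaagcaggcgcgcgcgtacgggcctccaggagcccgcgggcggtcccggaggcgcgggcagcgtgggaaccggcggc

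One untreated ZIP library stood apart in interferon-induced genes, and it affects how the treated difference compares with the untreated one. Over 41 genes of the GBP, IRG and antiviral lists, the untreated level was a median of 0.119% to 0.35% of the mean with cytokines in the 4 OE libraries and 0.681%, 0.882%, 0.946% and 3.8% in ZIP replicates 1 to 4. In untreated cells, 11 of 18 GBP and IRG genes and 10 of 25 antiviral genes were lower in OE than in ZIP, against 15% of all genes tested. Without ZIP replicate 4 these counts were 3 and 5. With DESeq2 the first count was 7, and without OE replicate 2 the second was 6. Toward a higher value with cytokines, the interaction passed for 12 of the 18 GBP and IRG genes, and for 7 without ZIP replicate 4. For the antiviral genes the counts were 17 and 12. Of all genes tested, 10.2% passed in this direction. Gbp5 had an interaction of 4.25 (adjusted p = 0.00142), which was 2.44 (adjusted p = 0.0474) without that library, and Irf1 one of 1.40 (adjusted p = 3.80e-07), which was 1.29 (adjusted p = 4.19e-07). The interaction of Nos2 (5.04, adjusted p = 0.00248) did not pass without it (2.86, adjusted p = 0.241), nor did those of Cxcl9, Cxcl10, Ccl2, Gbp2, Gbp6, Tgtp2, Ifit1, Oas3, Cd74 and Lgals9. The comparison of OE+Cy with ZIP+Cy holds no untreated library, apart from the spread they share in the fit.

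Most class II genes of antigen presentation were higher in OE+Cy, while most class I genes did not pass. Of 11 genes of MHC class II presentation, 9 were higher in OE+Cy (81.8%, against 13.7% of all genes tested) and none was lower. Ciita, the switch for class II genes, measured 13, 18, 32.8 and 30.7 CPM in OE+Cy and 3.6, 6.5, 7.86 and 6.64 CPM in ZIP+Cy (log2 fold change 1.94 ± 0.29, adjusted p = 4.80e-06). H2-Aa, a class II chain, measured 14.1, 36.4, 83.4 and 71.1 CPM against 2.86, 6.95, 11 and 6.29 CPM (log2 fold change 2.93 ± 0.42, adjusted p = 2.04e-06), with no overlap and a wide spread within OE+Cy. Cd74, the invariant chain, measured 268, 511, 812 and 755 CPM against 202, 265, 366 and 255 CPM, and both groups overlapped (log2 fold change 1.11 ± 0.37, adjusted p = 0.0134). It did not pass with DESeq2 (adjusted p = 0.112) or without OE+Cy replicate 3 (adjusted p = 0.051). Of 22 class I genes, 4 were higher, 3 were lower and 15 did not pass (31.8% called, against 27.3% of all genes tested), and with DESeq2 2 were higher. Leaving out ZIP+Cy replicate 1 or OE+Cy replicate 4 gave 5 lower genes. The lower genes were H2-Q7, a class I chain (−0.77), and Calr and Pdia3, which are also ER chaperones. B2m, the light chain of class I, overlapped between the groups at 1864, 2222, 2543 and 2486 CPM and 2331, 2710.4, 2519 and 2701 CPM (log2 fold change −0.17 ± 0.29, adjusted p = 0.643). The immunoproteasome subunit Psmb8 measured 437 ± 67 against 286 ± 28.6 CPM (log2 fold change 0.61 ± 0.20, adjusted p = 0.0146), not past the threshold with DESeq2 (adjusted p = 0.0585), without OE+Cy replicate 4 (log2 fold change 0.50, adjusted p = 0.0555) or, for the fold limit, without ZIP+Cy replicate 1 (0.56).

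Of 14 recognition and adhesion molecules, 8 were higher in OE+Cy (57.1%, against 13.7% of all genes tested) and none was lower. In the blocked fit or without OE+Cy replicate 3, 1 was lower. Cd274, the inhibitory ligand PD-L1, measured 439.8, 415, 464 and 403 CPM in OE+Cy and 141, 213, 191 and 209 CPM in ZIP+Cy (log2 fold change 1.19 ± 0.18, adjusted p = 3.52e-06). Icam1, to which leukocytes adhere, measured 194, 244, 349 and 303 CPM against 40.8, 59.3, 114 and 76.6 CPM (log2 fold change 1.91 ± 0.30, adjusted p = 9.71e-06). Lgals9, the galectin that binds T cells, measured 161, 250.3, 297 and 302 CPM against 18.8, 31.4, 48.3 and 36.8 CPM (log2 fold change 2.90 ± 0.28, adjusted p = 4.70e-09), and Cd40, a costimulatory receptor, 52.3 ± 14.5 against 17.4 ± 4.22 CPM. None of the 4 overlapped between the groups.

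**Figure D3:**
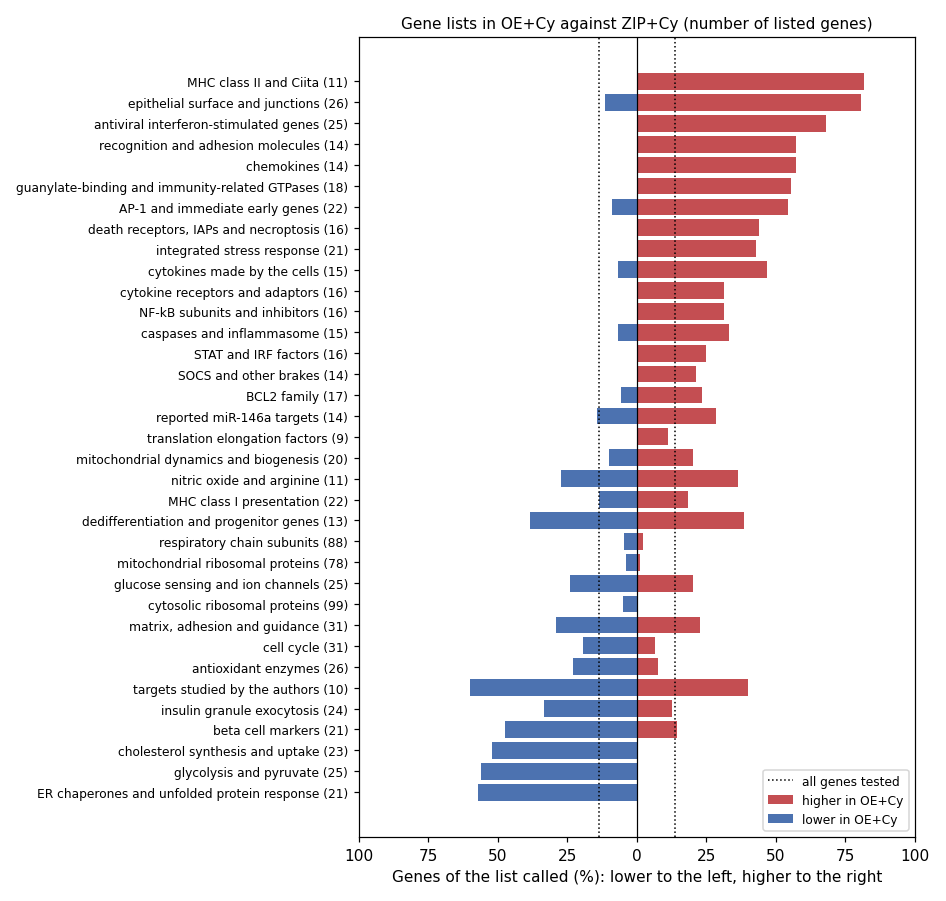
Share of the listed genes of each group that were called lower (left) or higher (right) in OE+Cy than in ZIP+Cy, in percent, with the shares over all genes tested as dotted lines (13.6% and 13.7%). The lists of interferon-induced genes and class II presentation lie to the right and those of ER chaperones, glycolysis and cholesterol synthesis to the left.

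Many ER chaperones were lower in OE+Cy, while genes of the integrated stress response, which is centered on the factor ATF4, were higher or did not pass. Of 21 genes of the unfolded protein response and its chaperones, 12 were lower in OE+Cy and none was higher. These 12 were 57.1% of the list, against 13.6% of all genes tested. Hspa5, the chaperone BiP at chr2:34772090-34776530, measured 1584, 1659, 1299 and 1499 CPM in OE+Cy and 2433, 2542, 2196 and 2998 CPM in ZIP+Cy, with no overlap (log2 fold change −0.75 ± 0.11, adjusted p = 2.40e-06). Pdia6, which forms disulfide bonds, measured 491, 438, 295 and 403 CPM against 980.3, 1029, 757 and 1316 CPM (log2 fold change −1.33 ± 0.15, adjusted p = 8.54e-08). Manf, a factor released under ER stress, measured 138, 131, 103 and 136 CPM against 438, 456, 380.2 and 585 CPM (log2 fold change −1.87 ± 0.13, adjusted p = 9.05e-12), and Hyou1 and Calr had log2 fold changes of −0.86 ± 0.12 and −0.88 ± 0.13. The mean of Hspa5 in Scr+Cy was 2015 ± 131 CPM, with log2 fold changes of −0.42 for OE+Cy and 0.34 for ZIP+Cy against it. Without cytokines, 2 of the 21 genes were higher and 2 lower in OE, and 4 and 0 without ZIP replicate 4. The interaction was negative in 18 and positive in none, against 10.4% and 10.2% of all genes tested. Hspa5 had a log2 fold change of 0.31 ± 0.11 between the untreated lines. Of the transmembrane sensors, Ern1 was lower (−0.78 ± 0.10) and Atf6 (−0.22) and Eif2ak3 (0.22) were under the fold limit.

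Of 21 genes of the integrated stress response, 9 were higher in OE+Cy (42.9%, against 13.7% of all genes tested) and none was lower. When ZIP+Cy replicate 3 or OE+Cy replicate 2 or 3 was left out, 1 was lower. Atf4, the translationally controlled factor at its center, measured 408, 554, 504 and 476 CPM in OE+Cy and 244, 303, 293 and 336 CPM in ZIP+Cy (log2 fold change 0.72 ± 0.15, adjusted p = 2.14e-04). Atf3, which ATF4 induces, measured 49.8, 51.8, 59.1 and 52.3 CPM against 10.5, 11.4, 14.6 and 17.5 CPM (log2 fold change 1.98 ± 0.16, adjusted p = 2.30e-10). Ddit3, the proapoptotic factor CHOP, measured 44, 75.9, 83.9 and 63.9 CPM against 23.6, 35, 45.8 and 35.5 CPM (log2 fold change 0.94 ± 0.24, adjusted p = 0.00202), with 1 OE+Cy library inside the range of ZIP+Cy. Trib3, a pseudokinase that binds ATF4, measured 69.4 ± 15.5 against 31 ± 6.33 CPM (log2 fold change 1.16 ± 0.26, adjusted p = 5.50e-04), and Phgdh, which begins serine synthesis, 53.5 ± 8.87 against 21.3 ± 3.02 CPM (log2 fold change 1.33 ± 0.18, adjusted p = 6.78e-07). Without cytokines, 1 of the 21 genes was higher and 2 lower in OE. The interaction was positive in 13 and negative in none, against 10.2% and 10.4% of all genes tested. It was positive in 8 without ZIP replicate 2, without OE replicate 4 or without OE+Cy replicate 3. Atf3 had a log2 fold change of −0.05 without cytokines.

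**Figure D4:**
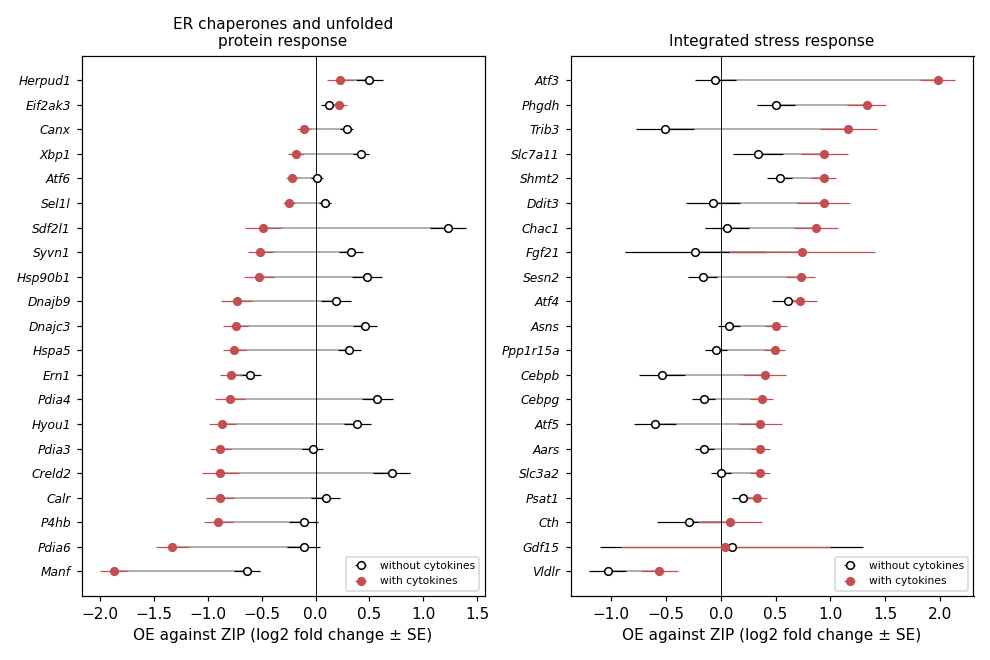
Log2 fold change ± SE of OE over ZIP with and without cytokines for genes of the ER chaperone and integrated stress response lists. With cytokines the genes of the first list lie below 0 except Herpud1 and Eif2ak3, and Atf3, Ddit3 and Trib3 lie above it, while without cytokines Hspa5 lies at 0.31 and Atf3 at −0.05.

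Both lines expressed the defining genes of β cells, in different proportions. Of 21 β cell markers, 3 were higher in OE+Cy (14.3%, against 13.7% of all genes tested), 10 were lower (47.6%, against 13.6%) and 8 did not pass. Ins2, which encodes insulin, overlapped at 12743, 9742, 8592 and 12200.3 CPM in OE+Cy and 11560.1, 11451, 10300.3 and 12350.3 CPM in ZIP+Cy (log2 fold change −0.08 ± 0.11, adjusted p = 0.575). Ins1, the second insulin gene of the mouse, measured 5001, 4475, 3471 and 5695 CPM against 1058, 1024, 900.5 and 1126 CPM (log2 fold change 2.18 ± 0.14, adjusted p = 3.70e-12), with a mean of 670.5 CPM in Scr+Cy. Iapp, which is secreted with insulin, was under the fold limit at 11328 ± 1044 against 8338 ± 215 CPM (0.44). Ucn3, a marker of mature β cells, measured 6.88, 4.71, 4.8 and 5.53 CPM against 0.244, 0.207, 0.153 and 0.0322 CPM (log2 fold change 5.09 ± 0.31, adjusted p = 1.39e-12), and Slc30a8, the zinc transporter of the insulin granule, 185 ± 10.5 against 76.4 ± 16.7 CPM (1.28).

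The transcription factors of the β cell were lower in OE+Cy or did not pass. Pdx1, which drives insulin transcription, measured 354, 332, 307 and 355 CPM in OE+Cy and 810.3, 813, 842 and 709 CPM in ZIP+Cy (log2 fold change −1.24 ± 0.06, adjusted p = 3.32e-14). Mafa, a factor of mature β cells, measured 378, 413, 268 and 372 CPM against 742, 718, 605 and 681 CPM (log2 fold change −0.94 ± 0.11, adjusted p = 1.44e-07), and Nkx6-1 115 ± 6.77 against 255 ± 23.7 CPM (log2 fold change −1.15 ± 0.07, adjusted p = 4.36e-12). Pax6 and Isl1 were lower (−0.64 and −0.65), Nkx2-2 was under the fold limit (−0.37) and Neurod1 did not pass (−0.01). The differences of Pdx1 and Mafa were larger than without cytokines, with interactions of −0.66 (adjusted p = 1.46e-05) and −0.81 (adjusted p = 7.39e-04). Slc2a2, the glucose transporter GLUT2, measured 34.1, 41, 40.3 and 33.8 CPM against 130.4, 96, 98.2 and 66.4 CPM (log2 fold change −1.39 ± 0.25, adjusted p = 5.38e-05). G6pc2, a glucose phosphatase subunit of islets, measured 1436, 1226, 1027 and 1043 CPM against 5307, 4533, 4514 and 4194 CPM (log2 fold change −1.97 ± 0.10, adjusted p = 2.68e-14). The mean of Slc2a2 in Scr+Cy was 14.6 CPM.

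The largest falls in CPM were in Igf2, Ero1b, G6pc2, Scg2 and Chga, most of them genes of secreted proteins or of the ER. The growth factor Igf2 measured 2975, 2611, 2369 and 2709 CPM in OE+Cy and 8654, 7779.7, 7589.6 and 8511 CPM in ZIP+Cy (log2 fold change −1.61 ± 0.07, adjusted p = 3.55e-15). Ero1b, the oxidase that supports folding of proinsulin, measured 2145, 2000.5, 1834 and 1756 CPM against 6791, 6344, 5883 and 5706 CPM (log2 fold change −1.68 ± 0.07, adjusted p = 5.08e-16). The granule protein Scg2 measured 3016 ± 143 against 6178 ± 302 CPM (−1.03 ± 0.07), and Chga 6258 ± 835 against 9234 ± 778 CPM, under the fold limit (−0.56 ± 0.09) and past it without ZIP+Cy replicate 3 or without OE+Cy replicate 1 or 4 (−0.61 to −0.62). Of 24 genes of granule exocytosis, 3 were higher and 8 lower (12.5% and 33.3%, against 13.7% and 13.6% of all genes tested). The calcium sensor Syt7 was higher, with 845, 723, 683 and 652 CPM against 241, 235, 243 and 203 CPM (log2 fold change 1.66 ± 0.09, adjusted p = 2.27e-13). The vesicle GTPase Rab3a (43.5 ± 3.85 against 90.7 ± 11.7 CPM) and the fusion clamp Cplx1 (1.05 ± 0.313 against 11.5 ± 1.19 CPM) were lower. Stx1a, Snap25 and Vamp2, the core fusion proteins, had log2 fold changes of 0.56, −0.26 and −0.45, all under the limit. Of 25 genes of glucose sensing and ion channels, 5 were higher and 6 lower (44% called, against 27.3% of all genes tested), and the KATP channel subunits Kcnj11 (0.26) and Abcc8 (0.16) were under the limit.

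Most genes of cell death that passed the test were higher in OE+Cy. Of 16 death receptors, inhibitors of apoptosis and p53 genes, 7 were higher (43.8%, against 13.7% of all genes tested) and none was lower. Birc3, an inhibitor of apoptosis that NF-κB induces, measured 64.8, 63.6, 91.9 and 74.5 CPM in OE+Cy and 17.3, 20.9, 24.1 and 21.7 CPM in ZIP+Cy (log2 fold change 1.81 ± 0.15, adjusted p = 2.38e-10), and Birc2, its neighbor, had a log2 fold change of 1.30 ± 0.08. Cdkn1a, the p53-induced inhibitor p21, measured 214, 206, 166 and 146 CPM against 95.2, 86.8, 85.9 and 93.6 CPM (log2 fold change 1.02 ± 0.13, adjusted p = 2.99e-07). The receptors Fas and Tnfrsf10b passed at means of 1.32 and 2.83 CPM in OE+Cy. Of 15 caspase and inflammasome genes, 5 were higher and 1 was lower (33.3% and 6.67%, against 13.7% and 13.6% of all genes tested). Casp8, which death receptors activate, measured 36, 35.8, 39.8 and 39.5 CPM against 13.8, 13.5, 15.3 and 14.2 CPM (log2 fold change 1.41 ± 0.09, adjusted p = 2.88e-12), and the pore-forming Gsdmd 27.7, 30, 40 and 36.1 CPM against 12.2, 12.4, 14.9 and 13.9 CPM (log2 fold change 1.33 ± 0.13, adjusted p = 4.40e-09). Casp4 did not pass with DESeq2 (adjusted p = 0.294).

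Of 17 genes of the BCL2 family, 4 were higher and 1 was lower, a share called of 29.4%, near the 27.3% of all genes tested. Bid, which carries the caspase-8 signal to mitochondria, measured 47.8, 51.3, 64.6 and 52.1 CPM in OE+Cy and 22.3, 27.8, 32.7 and 23.7 CPM in ZIP+Cy (log2 fold change 1.02 ± 0.12, adjusted p = 1.31e-07), with an interaction of 1.48 (adjusted p = 2.15e-05). Bbc3, the p53 target PUMA, measured 15.3, 15.1, 14.9 and 11.5 CPM against 6.6, 9.09, 8.09 and 7.32 CPM (log2 fold change 0.87 ± 0.16, adjusted p = 8.64e-05). The prosurvival Bcl2 (−0.44), Bcl2l1 (0.30) and Mcl1 (0.27) and the effectors Bax (0.21) and Bak1 (0.46) were under the fold limit. Bnip3, a mitochondrial protein induced by hypoxia, was lower, at 22.2, 39.5, 35.1 and 32.2 CPM against 122, 76.1, 72.9 and 95.2 CPM (log2 fold change −1.51 ± 0.43, adjusted p = 0.00487).

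Every gene called on the lists of glycolysis and of cholesterol synthesis was lower in OE+Cy. Of 25 genes of glycolysis and pyruvate use, 14 were lower (56%, against 13.6% of all genes tested) and none was higher. Without cytokines, 8 were lower and none higher. Ldha, lactate dehydrogenase A at chr7:46845804-46855628, measured 6.32, 20.2, 12.9 and 18.3 CPM in OE+Cy and 158, 88.2, 82.2 and 149.7 CPM in ZIP+Cy (log2 fold change −3.05 ± 0.55, adjusted p = 4.42e-05), with a mean of 446 CPM in Scr+Cy. Against Scr+Cy, Ldha had log2 fold changes of −4.95 for OE+Cy and −1.90 for ZIP+Cy. The hexokinases Hk1 and Hk2, which begin glycolysis and stood on the list of dedifferentiation genes instead, were higher, with log2 fold changes of 1.27 ± 0.25 (adjusted p = 1.49e-04) and 2.64 ± 0.48 (adjusted p = 4.81e-05). Pdk1, which inhibits pyruvate dehydrogenase, measured 22, 36.8, 37.8 and 35.8 CPM against 101, 64.1, 69.4 and 80.9 CPM (log2 fold change −1.25 ± 0.40, adjusted p = 0.00967). Pcx, which feeds pyruvate into the citrate cycle, and Mpc1, a subunit of the pyruvate carrier, had log2 fold changes of −0.74 and −0.97. Of 23 genes of cholesterol synthesis and uptake, 12 were lower (52.2%, against 13.6% of all genes tested) and none was higher. When ZIP+Cy replicate 2 was left out, 7 were lower. The sterol sensor Insig1 measured 90.8, 111, 101 and 112 CPM against 236, 243, 186 and 209 CPM (log2 fold change −1.08 ± 0.10, adjusted p = 1.57e-09), and the sterol carrier Stard4 69.3 ± 5.48 against 149 ± 10.3 CPM (−1.10 ± 0.09).

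Few genes of the respiratory chain, mitochondrial ribosome and mitochondrial import passed the test with its fold limit. Of 88 respiratory chain subunits, 2 were higher and 4 lower, and of 78 mitochondrial ribosomal proteins 1 was higher and 3 were lower. The shares called were 6.82% and 5.13%, against 27.3% of all genes tested. Differences under the fold limit do not enter these counts. Median log2 fold changes were −0.18 for the respiratory chain, 0.056 for the mitochondrial ribosome and 0.022 for import, against 0.027 over all genes tested. For the respiratory chain, the interaction was negative in 12 genes and positive in 1, against 10.4% and 10.2% of all genes tested. Of 22 genes of mitochondrial import, 1 was lower (4.55%) and none was higher. That gene was Timm17b, a subunit of the inner membrane translocase, at 26.2 ± 3.07 against 43.8 ± 5.41 CPM (log2 fold change −0.74 ± 0.09, adjusted p = 3.04e-07). Of 20 genes of mitochondrial dynamics and biogenesis, 4 were higher and 2 lower, a share called of 30%, near the 27.3% of all genes tested. Dnm1l, which cuts mitochondria apart, measured 153, 144, 151 and 126 CPM in OE+Cy and 65.8, 69.4, 68.6 and 63.5 CPM in ZIP+Cy (log2 fold change 1.10 ± 0.06, adjusted p = 1.98e-13). Mfn2, which fuses them, measured 47.4, 46.5, 47.1 and 40.4 CPM against 78.6, 75.3, 80.1 and 69.3 CPM (log2 fold change −0.74 ± 0.09, adjusted p = 8.86e-08). Ucp2, an inner membrane carrier that lowers the yield of ATP, measured 50.6, 50.9, 44.3 and 61.9 CPM against 13.8, 14.2, 12.2 and 16.8 CPM (log2 fold change 1.86 ± 0.12, adjusted p = 2.30e-12), with a mean of 53.4 CPM in Scr+Cy. Ppargc1a, a coactivator of mitochondrial biogenesis, and the nuclear receptor Esrra were higher (1.43 and 0.91), and Tfam did not pass (0.03).

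Of 26 antioxidant genes, 2 were higher and 6 lower (30.8% called, against 27.3% of all genes tested). Catalase (Cat) measured 0.313, 0.643, 0.916 and 0.79 CPM in OE+Cy and 4.82, 4.87, 6.55 and 5.67 CPM in ZIP+Cy (log2 fold change −3.02 ± 0.27, adjusted p = 1.06e-09), and the quinone reductase Nqo1 1.15, 0.982, 0.632 and 0.608 CPM against 11.6, 9.26, 12.6 and 7.54 CPM (log2 fold change −3.61 ± 0.29, adjusted p = 2.12e-10). Txnip, which binds thioredoxin and is induced by glucose, measured 69.6, 120.5, 159 and 121 CPM against 29.2, 23.6, 23.1 and 19.9 CPM (log2 fold change 2.29 ± 0.18, adjusted p = 1.08e-10). Of the superoxide dismutases, Sod1 did not pass (−0.11) and Sod2 was under the limit (0.30).

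Cell cycle genes were called at a share near that of all genes. Of 31 genes, 6 were lower in OE+Cy and 2 higher (25.8% called, against 27.3% of all genes tested). The interaction was negative in 23 and positive in 1 (2 in the blocked fit and without OE+Cy replicate 1), against 10.4% and 10.2% of all genes tested. Ccnd2, the main D-type cyclin of mouse β cells, measured 720.0, 473, 422 and 451 CPM in OE+Cy and 2259, 1981, 1662 and 1791 CPM in ZIP+Cy (log2 fold change −1.90 ± 0.15, adjusted p = 1.26e-10), and Ccne2 31 ± 6.0 against 88 ± 9.15 CPM (log2 fold change −1.51 ± 0.12, adjusted p = 8.23e-11). The proliferation markers Mki67 and Top2a were under the limit (−0.30 ± 0.08 and −0.20 ± 0.09), while the log2 fold change of Top2a was 0.47 without cytokines (interaction −0.68, adjusted p = 4.41e-04). Of 22 immediate early genes, 12 were higher (54.5%, against 13.7% of all genes tested) and 2 lower (9.09%, against 13.6%). Klf6 measured 82.7, 104, 128 and 95.9 CPM against 24.9, 31, 29 and 28.4 CPM (log2 fold change 1.86 ± 0.10, adjusted p = 2.40e-13), the growth-responsive factor Egr1 38.2 ± 4.65 against 7.31 ± 2.11 CPM (log2 fold change 2.38 ± 0.38, adjusted p = 1.03e-05) and Batf2, an interferon-induced member of the AP-1 family, 108, 130.3, 165 and 159 CPM against 8.1, 14.9, 19.6 and 20.4 CPM (log2 fold change 3.16 ± 0.27, adjusted p = 5.49e-10). Of 9 translation elongation factors, only Eef1a2, the muscle and nerve form of the factor, passed, with 42.6, 55.6, 49.1 and 61.2 CPM in OE+Cy and 0.0698, 0.173, 0.537 and 0.903 CPM in ZIP+Cy (log2 fold change 6.92 ± 0.29, adjusted p = 1.50e-15). Its mean in Scr+Cy was higher still, at 295 CPM. The 99 cytosolic ribosomal proteins had 5 lower genes (5.05%, against 13.6% of all genes tested) and no higher ones.

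Genes with the largest interactions were named by their size. The receptor tyrosine kinase Axl measured 3.68, 6.54, 15 and 5.71 CPM in OE+Cy and 0.629, 0.0346, 0.115 and 0.0645 CPM in ZIP+Cy (interaction 6.78, adjusted p = 0.00192). Tifa, an adaptor between TRAF proteins and NF-κB, measured 6.5, 18.5, 21.3 and 23.8 CPM against 0.105, 0, 0.0383 and 0.129 CPM (interaction 5.75, adjusted p = 0.00436), and its groups did not overlap. Trim34a (6.66), Gbp11 (6.47) and Apol6 (5.62) followed, and the last 2 did not pass without ZIP replicate 4. Apol6 itself did not pass between OE+Cy and ZIP+Cy (log2 fold change 0.91 ± 0.40, adjusted p = 0.0613), but it did in the blocked fit (1.09, adjusted p = 0.00166) and without ZIP+Cy replicate 4 (1.21, adjusted p = 0.0265), and its unadjusted p was 0.0341. The most negative interaction was that of the complement gene C4b (−5.02, adjusted p = 3.74e-06), which overlapped with cytokines at 45.1, 64.9, 69.3 and 93.3 CPM and 33.5, 59.5, 94.2 and 72 CPM and was higher in OE without them (5.09). The junction protein Cldn11, the nuclear body protein Sp140, Derl3, which helps to clear misfolded ER proteins, and the receptor Nmbr had interactions of −2.58, −2.53, −2.47 and −2.40.

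Some differences followed chromosome position. The genome was cut into 10 Mb windows, of which 247 held 10 or more of the 9741 genes with a mean of 10 CPM or more. In 9 of them the median log2 fold change reached 0.3 in either direction and 75% or more of the genes shared its sign. On chromosome 9, 4 adjoining windows from 80 to 120 Mb had medians of −0.838, −0.747, −0.86 and −0.745, and 78 of 81 genes between 100.0 and 110 Mb were below 0. The medians of ZIP+Cy over Scr+Cy in them were 0.663, 0.663, 0.812 and 0.795, and those of OE+Cy over Scr+Cy lay between −0.175 and 0.071. On chromosome 13, the window from 50 to 60 Mb had a median of −0.913 with 56 of 57 genes below 0, and there OE+Cy over Scr+Cy had a median of −0.92 and ZIP+Cy over Scr+Cy of 0.03. On chromosome 16, the window from 10 to 20 Mb had a median of 0.479, with −0.304 for ZIP+Cy over Scr+Cy. The medians without cytokines were −0.907, −0.897 and 0.485 in the windows at 100.0 Mb of chromosome 9, at 50 Mb of chromosome 13 and at 10 Mb of chromosome 16. The window from 40 to 50 Mb of chromosome 11 (0.367) had a median of 0.012 without cytokines and holds the interferon-induced genes Tgtp1 and Tgtp2. The other 2 windows were on chromosome 4 from 20 to 30 Mb, with a median of −0.443 and all 14 genes below 0, and on chromosome 7 from 130 to 140 Mb, with a median of −0.303. Over whole chromosomes, the medians were lowest on chromosomes 18 (−0.209), 2 (−0.18), 9 (−0.176), 4 (−0.137) and 7 (−0.106), with 28.3% to 37.1% of genes above 0 on them, and lay between −0.071 and 0.124 on the rest. Gpx1, Manf and Trf lie in the stretch of chromosome 9, and Socs1, Ciita and Dnm1l in the window of chromosome 16. Myrip lies in the next window of chromosome 9, from 120 to 130 Mb. The median of that window was −0.53, but with 20 of 30 genes below 0 it did not reach the 75% limit. Its medians over Scr+Cy were 0.822 for ZIP+Cy and 0.175 for OE+Cy. Traf6 and Notch1 lie on chromosome 2, in windows from 100 to 110 Mb (median −0.227) and from 20 to 30 Mb (median −0.233). DNA copy number was not measured, and its part in these values was not tested.

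**Figure D5:**
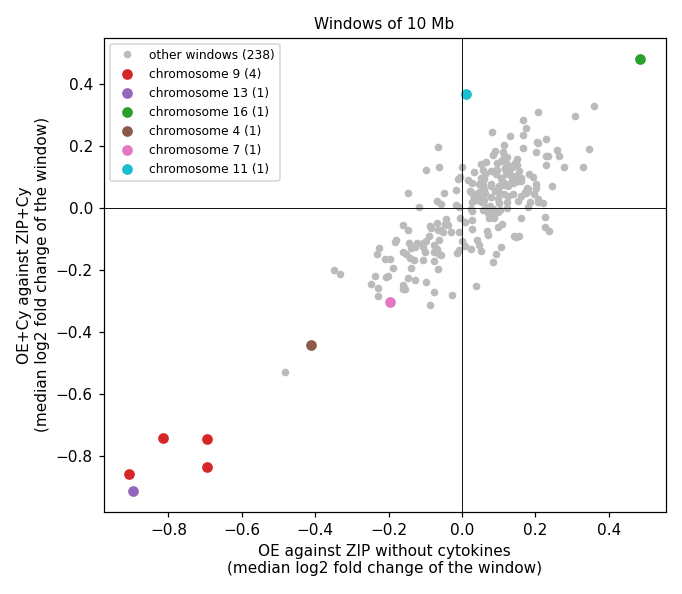
Median log2 fold change of OE over ZIP in windows of 10 Mb, with cytokines on the vertical axis and without on the horizontal axis, one point per window. The 4 windows of chromosome 9 and that of chromosome 13 lie below −0.7 with cytokines, and the 238 unmarked windows lie mostly near 0.

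Markers of other cell types also differed between the lines. The summed level of 5 duct and acinar markers was 355 to 469.6 CPM in OE+Cy and 5.34 to 6.71 CPM in ZIP+Cy, carried mostly by Krt7 and Krt19, while Sox9 was at 0 in both groups. Of 7 markers of other islet cells, 3 were higher in OE+Cy and 2 lower (42.9% and 28.6%, against 13.7% and 13.6% of all genes tested). Their median log2 fold change was 0.73. Their summed level was 101 to 376 CPM in OE+Cy and 2151 to 3034 CPM in ZIP+Cy. Most of it was Ttr, transthyretin, with 339.5, 140.4, 87.3 and 114 CPM against 2953, 2345, 2073 and 2237 CPM (log2 fold change −3.82 ± 0.31, adjusted p = 1.75e-10). Gcg, the glucagon gene, measured 29, 19, 6.44 and 10.9 CPM against 81.3, 133, 78.2 and 218 CPM (log2 fold change −2.97 ± 0.38, adjusted p = 3.77e-07). Ppy, pancreatic polypeptide, was higher in OE+Cy at 4.11 ± 1.74 CPM, at least 39.16-fold. Irx2 (3.59 against 0.0501 CPM, log2 fold change 6.01 ± 0.55) and Sst were higher in OE+Cy as well. The 5 immune markers summed to at most 3.83 CPM in either group with Ptprc and Csf1r at 0 in OE+Cy, the 3 endothelial markers to at most 5.07 CPM and the 6 fibroblast markers to at most 5.55 CPM, mostly Pdgfra in ZIP+Cy (2.56 ± 0.595 CPM). The part of the duct and islet markers in the other differences was not tested.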

How the data were processed

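The 24 mRNA libraries of MIN6 cells (KAPA mRNA Hyper Prep kit, total RNA) were analysed in 6 groups of 4 taken from the labels. The authors aligned reads to mm10 with STAR (2.7.8a in the submitters' notes, another version in the methods), assigned them to RefSeq transcripts in Partek Flow 11.0.24.0204, kept genes with 10 or more reads over all libraries, and used DESeq2 for their tests. Use of strand was not given in the sources used here, so reads of overlapping or antisense genes cannot be told apart. The deposited table of estimated counts per gene, in which 30.3% of values were not whole, was used after rounding. The deposited normalized signal, which is the authors' count divided by a factor per library, was used only to check the count table (all values within 1 percent).

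The 17696 genes listed were tested without a further filter by edgeR 4.0.16 in R 4.3.3 (glmQLFit and glmQLFTest, TMM, 1 model of 6 group means over 24 libraries, Benjamini-Hochberg adjustment). Calls needed an adjusted p under 0.05 with a difference of 1.5-fold or more, and an interaction at an adjusted p under 0.05. The study used an unadjusted p under 0.05. Beside a gene at 3 reads or fewer in every library of a group, the fold was computed against 3 reads per library. The steps were tested on simulated data. The alternatives were DESeq2 1.42.0, its size factors, filterByExpr, the compared libraries only, an unadjusted p, the replicate number as a block, and leaving out each library.

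The numbers pair the samples: deviations of OE+Cy and ZIP+Cy libraries with the same number from their group means correlated at 0.267, 0.122, 0.481 and 0.166 over 12673 genes, and every library correlated best with its own number. Each of these correlations lay above the limit of 0.1 set for pairing, but the main fit did not use the number. Its log2 fold changes, SE, p values and calls therefore treat the libraries as unpaired. Ccl2 and Apol6 did not pass in that fit but passed with the number as a block. The labels do not say what a number stands for. The comparison and the gene lists were chosen with earlier results of these data known. Named genes were members of the lists, the 10 largest rises and falls by fold and the 5 by CPM without overlap between groups and with at least 5 CPM in a group, and the 5 largest interactions in each direction. Predicted genes and symbols without a name were not named, and some list members are counted but not reported here by name. Promoter and microRNA sequences came from RefSeq. The 3′ UTRs came from the GENCODE M21 annotation of mm10, with the coding transcript of the longest 3′ UTR taken for each gene.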

Additional observations from a re-analysis of the deposited data

Results flagged for a closer look

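In 11 of 280 groups of 4 libraries, 1 library lay far from the other 3 by Dixon's test, and chance flags about 1 in 20 groups. Pabpc1l2b had 0.175 CPM in ZIP+Cy replicate 1, against 0 CPM in each of the others. Krt7 had 6.59 CPM in ZIP+Cy replicate 3, against 5.19 to 5.34 CPM. Kcnj12 had 36.7 CPM in ZIP+Cy replicate 4, against 49.8 to 51.6 CPM. Klb had 9.01 CPM in ZIP+Cy replicate 3, against 16.4 to 16.8 CPM. Zfp521 had 9.71 CPM in ZIP+Cy replicate 2, against 12.8 to 13.1 CPM. Nos2 had 1008 CPM in OE+Cy replicate 3, against 704 to 741 CPM. Bbc3 had 11.5 CPM in OE+Cy replicate 4, against 14.9 to 15.3 CPM. Phgdh had 40.3 CPM in OE+Cy replicate 1, against 57.1 to 59 CPM. Pdk1 had 22 CPM in OE+Cy replicate 1, against 35.8 to 37.8 CPM. Mfn2 had 40.4 CPM in OE+Cy replicate 4, against 46.5 to 47.4 CPM. Axl had 0.629 CPM in ZIP+Cy replicate 1, against 0.0346 to 0.115 CPM.

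The difference between OE and ZIP with cytokines differed from that without, by the interaction term of the edgeR fit, in 80 of the genes described, 52 toward a higher value with cytokines and 28 toward a lower one. The values below are differences of log2 fold changes. Of the microRNA targets, Irak2 had 1.76, Nrg1 1.69, Perp 0.39 and Gpx1 −0.45. Epithelial and matrix genes had 0.82 for Cdh1, −0.98 for Krt7, 0.29 for Zeb1, 0.73 for Lama5 and −1.08 for Epb41l4a. Genes of the β cell, its granule and other islet cells had −0.37 for Iapp, −0.68 for G6pc2, −0.71 for Scg2, −0.66 for Chga, −0.66 for Pdx1, −0.81 for Mafa, −1.59 for Ucn3, 1.06 for Syt7, −0.58 for Rab3a and −1.35 for Ttr. Genes of nitric oxide, cytokines and chemokines had 5.04 for Nos2, 0.74 for Ass1, −0.43 for Slc7a2, 2.96 for Lif, 1.19 for Il1b, 3.90 for Cxcl9, 4.05 for Cxcl10 and 4.39 for Ccl2.

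Signaling genes had 1.40 for Irf1, 1.48 for Ifngr2, 0.66 for Jak2, 2.05 for Socs1, 1.28 for Ikbke and 0.54 for Rela. Interferon-induced genes had 4.64 for Tgtp1, 4.04 for Tgtp2, 4.45 for Gbp2, 4.25 for Gbp5, 4.28 for Gbp6, 3.95 for Isg15, 2.07 for Ifit1, 1.63 for Ifit2 and 3.65 for Oas3. Antigen presentation and recognition genes had 3.37 for Cd74, 1.67 for B2m, 1.93 for Psmb8, 2.42 for Cd40 and 5.08 for Lgals9. Without untreated ZIP replicate 4, the interaction did not pass for Perp, Krt7, Ucn3, Nos2, Slc7a2, Cxcl9, Cxcl10, Ccl2, Tgtp2, Gbp2, Gbp6, Ifit1, Oas3, Cd74, Lgals9, Gbp11 and Apol6. Genes of cell death had −0.72 for Casp8, 1.23 for Gsdmd, 1.48 for Bid, 1.01 for Bbc3 and 1.48 for Tnfrsf10b.

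ER chaperones had −1.06 for Hspa5, −1.22 for Pdia6, −1.25 for Hyou1, −1.23 for Manf and −0.98 for Calr, and stress response genes 2.03 for Atf3, 1.01 for Ddit3, 1.67 for Trib3 and 0.83 for Phgdh. Metabolic and mitochondrial genes had 1.38 for Txnip, 1.69 for Cat, −0.52 for Stard4 and 0.39 for Mfn2. Cell cycle and immediate early genes had −0.79 for Ccne2, −0.68 for Top2a, −0.42 for Mki67, 0.91 for Cdkn1a and 1.10 for Klf6. The largest values were 6.78 for Axl, 6.66 for Trim34a, 6.47 for Gbp11, 5.75 for Tifa and 5.62 for Apol6 on the positive side, and −5.02 for C4b, −2.58 for Cldn11, −2.53 for Sp140, −2.47 for Derl3 and −2.40 for Nmbr on the negative side.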

How the results depend on the processing

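The counts of called genes in the 5 comparisons, in all and by direction, stayed within 1.5 times under every alternative except 2. With an unadjusted p under 0.05, the interaction passed in 5672 genes in place of 3647, and in 2933 in place of 1798 toward a higher value, a looser threshold by construction. Leaving out each library gave 4581 to 4803 genes for OE+Cy against ZIP+Cy, 4314 to 4512 for the untreated lines and 2929 to 4119 for the interaction, the lowest of the last without OE+Cy replicate 3. With the replicate number as a block, 4901 genes were called between OE+Cy and ZIP+Cy, and of the 147 genes followed through all alternatives, Ccl2 and Apol6 changed call in this comparison and the others did not. List counts of 2 or fewer genes often moved by 1 when a library was left out. No named gene called in the main fit changed sign under an alternative. No named gene not called there was called in the opposite direction. For comparisons and lists only the size of the counts was followed, and the sign of genes never called was not. For named genes, DESeq2 ended the calls of Cxcl9, Gbp6, Isg15, Cd74, Psmb8 and Casp4 between OE+Cy and ZIP+Cy, and the cause was not tested. Untreated ZIP replicate 4 decided many of the interactions of interferon-induced genes, whose values without it are given above. Genes near the floor of 3 reads per library have no upper limit on their fold, and a difference in genes under about 1 CPM rests on few reads.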
